A study of Homo sapiens with 6 samples.

Results

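Cadherins, claudins and their partners hold neighbouring epithelial cells together. The results below concern 10 such genes in doxorubicin-resistant breast cancer cells treated with cyperotundone (CYT). They were chosen by name, as the rows of the expression table named CDH1, CDH2, CDH3, CDH11, CLDN1, CLDN3, CLDN4, CLDN7, EPCAM and OCLN, which are 10 of the 58302 genes listed. The rule uses names alone and no measured value, although earlier results of these data were known when the genes were listed.

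MDA-MB-231-DR is a doxorubicin-resistant line derived from MDA-MB-231, a human breast cancer line that lacks the estrogen and progesterone receptors and HER2, and CYT is a natural product of the sedge family. mRNA was sequenced from 3 control and 3 CYT-treated MDA-MB-231-DR libraries, and the study asked which genes the compound changes in resistant cells. The sample titles give MDA-MB-231-DR, while the field for the cell line gives MDA-MB-231, and the titles were followed. No vehicle is named for the control group, and the dose and duration of CYT for these libraries are not given in the sources used here. By the methods, the resistant cells were kept in a low concentration of doxorubicin, a DNA-damaging anthracycline. Whether it was present during CYT treatment or at harvest in either group is not given in the sources used here. All 6 libraries come from 1 cell line. The methods speak of independent experiments in general terms, but nothing states that these replicates are separate cultures, so the p-values measure the spread between these samples only, which may be technical.

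As background, E-cadherin, N-cadherin, P-cadherin and cadherin-11, encoded by CDH1, CDH2, CDH3 and CDH11, are calcium-dependent adhesion proteins that bind their like on the next cell and are anchored to actin through catenins. Claudins form the strands of tight junctions, which seal the space between epithelial cells, and occludin, encoded by OCLN, lies in the same strands. EPCAM is an epithelial adhesion molecule whose product binds claudin-7. In epithelial-mesenchymal transition, cells lose E-cadherin and claudins, often gain N-cadherin, and express the repressors SNAI1, SNAI2, ZEB1 and ZEB2, which bind the E-box sequence CACCTG in target promoters. MDA-MB-231 is known as a mesenchymal, claudin-low line.

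Control libraries held 14050849 to 17770102 counts in genes, and CYT libraries 13056270 to 14106017. CYT replicate 2 stood apart, with correlations of log2 CPM of 0.905 and 0.904 to the other CYT libraries, while these correlated at 0.970 with each other and control libraries at 0.953 to 0.971. The label of a line without hormone receptors was read against their genes: ESR1 had at most 4 counts and PGR at most 3 in any library. All 8 mesenchymal markers passed the filter on low counts, the most abundant being LGALS1 at 589 FPKM in control. Their summed level was 4941 to 6483 CPM in control and 3064 to 3855 CPM in CYT libraries.

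The sequences below show where E-cadherin and N-cadherin transcripts are read by quantitative PCR in the study, and what lies before the start of 3 claudin genes. The primers were matched to GENCODE release 29 transcripts (GRCh38), and each matched only its own gene, in coding exons. They are written 5′ to 3′ in lower case.
CDH1 forward: cgagagctacacgttcacgg
CDH1 reverse: gggtgtcgagggaaaaatagg
CDH2 forward: agccaaccttaactgaggagt
CDH2 reverse: ggcaagttgattggagggatg
The CDH1 forward primer lies at chr16:68738350-68738369 in exon 2 and the reverse primer at chr16:68801706-68801726 in exon 3 of transcript CDH1-201. They frame 119 bases of that transcript, and both match 7 of the 14 CDH1 transcripts. The CDH2 forward primer lies at chr18:28013691-28013711 in exon 3 and the reverse primer at chr18:28011886-28011906 in exon 4 of CDH2-201. They frame 136 bases, and both match 4 of the 5 CDH2 transcripts. The gene counts analysed here cover whole genes, so they are not limited to these exons.

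RefSeq promoter windows (GRCh38.p14), which run from 250 bases before to 50 bases after an annotated start, matched 6 of the 10 genes with 9 windows. The genes without a window were CDH1, CDH3, CDH11 and EPCAM. The E-box CANNTG was searched, and within it CACCTG or CAGGTG, which are the same motif read on either strand and are called the core E-box here. The following stretches show the claudin genes at 250 bases before to 30 after the start, with core E-boxes in capitals. They were chosen because CLDN3 and CLDN4 are neighbours with different values and because CLDN7 has the most core E-boxes.
CLDN7, second start, chr17:7262449-7262728, minus strand: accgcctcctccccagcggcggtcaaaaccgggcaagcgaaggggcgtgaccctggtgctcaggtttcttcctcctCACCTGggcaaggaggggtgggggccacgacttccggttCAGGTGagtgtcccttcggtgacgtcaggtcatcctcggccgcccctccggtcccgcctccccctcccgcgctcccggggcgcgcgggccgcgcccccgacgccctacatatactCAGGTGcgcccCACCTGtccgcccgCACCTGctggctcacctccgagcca
CLDN3, chr7:73770241-73770520, minus strand: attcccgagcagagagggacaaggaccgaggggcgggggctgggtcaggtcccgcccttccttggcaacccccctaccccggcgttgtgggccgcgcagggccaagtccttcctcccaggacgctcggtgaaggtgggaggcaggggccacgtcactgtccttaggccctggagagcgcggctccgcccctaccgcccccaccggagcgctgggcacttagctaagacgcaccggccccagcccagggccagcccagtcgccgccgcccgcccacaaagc
CLDN4, chr7:73830746-73831025, plus strand: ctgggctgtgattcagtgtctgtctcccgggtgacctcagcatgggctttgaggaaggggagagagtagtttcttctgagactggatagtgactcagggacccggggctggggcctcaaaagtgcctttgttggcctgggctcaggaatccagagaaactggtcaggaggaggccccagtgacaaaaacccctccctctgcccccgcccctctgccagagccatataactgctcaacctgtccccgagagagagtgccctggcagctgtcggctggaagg
The second CLDN7 window held 5 core E-boxes, which began at -174, -135, -20, -9 and 6 from the start. Of 35116 RefSeq promoter windows, 20.6% held at least 1 core E-box, 3.49% at least 2 and 0.094% at least 5. The first CLDN7 window, whose start lies upstream, held none. CLDN3 held 1 core E-box, which begins at position 37 and so falls past the stretch shown. OCLN held 1 in its first and 2 in its second window. The windows of CLDN1, CLDN4 and CDH2 held none, although E-boxes of other sequence were found, 2 in CLDN4 and 1 in the second CDH2 window, as also 1 in the first CLDN7 window. Any E-box was found in 68.7% of all windows. A match is a description of letters, and binding was not measured.

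**Figure D1:**
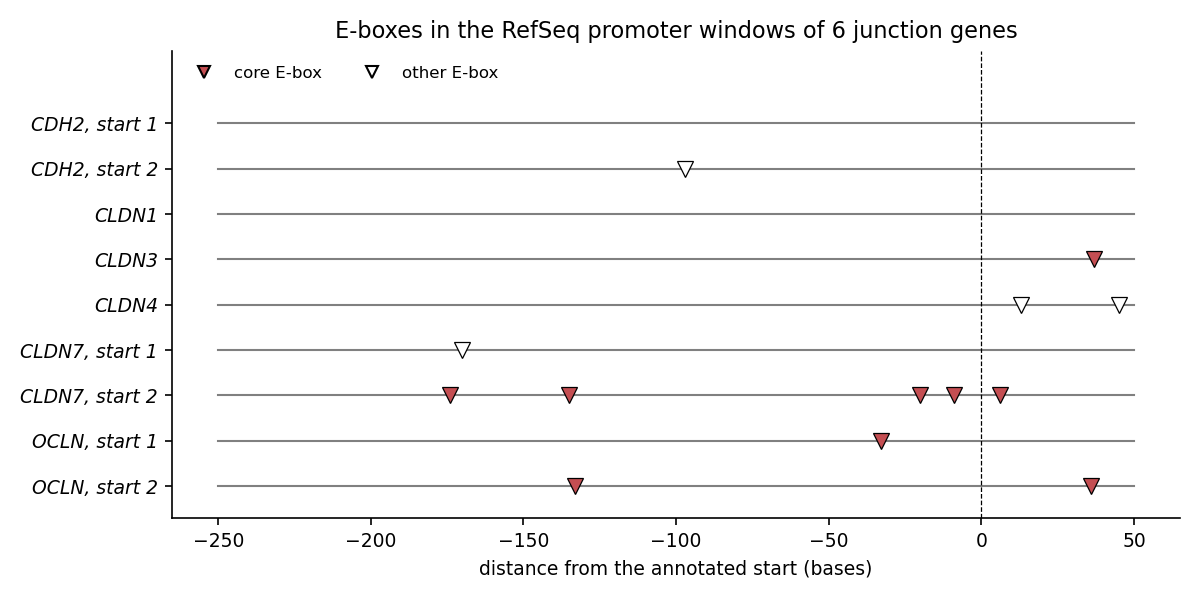
E-boxes in the 9 RefSeq promoter windows of 6 junction genes, by distance from the annotated start in bases. Filled triangles are core E-boxes and open triangles other E-boxes, and the second CLDN7 start carries 5 core E-boxes, the most among these windows.

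Cadherin-11 mRNA fell 4.07-fold with CYT, the only one of the 10 genes past the test. CDH3, CLDN3 and CLDN7 lay lower in each CYT library than in any control library without passing it, where 46.1% of all genes tested had groups that did not overlap. E-cadherin mRNA was counted in CYT libraries alone, at a very low level. CLDN1, CLDN4 and OCLN overlapped between the groups and were not called. CPM denotes counts scaled to library size by the TMM method, calls come from the quasi-likelihood test of edgeR, and a gene was called at an adjusted p under 0.05. Of the 10 genes, 7 passed edgeR's filter on low counts (CDH3, CDH11, CLDN1, CLDN3, CLDN4, CLDN7 and OCLN), and CDH1, CDH2 and EPCAM did not. Of the 7, 1 was called lower and 0 higher, and 2 had an unadjusted p under 0.05. Among all 15572 genes tested, 28.6% were called, 12.9% lower and 15.7% higher, so 1 call among 7 is no larger a share than the background. Their median log2 fold change was -0.86, against 0.0064 over all genes tested. In bulk RNA, fewer cells that express a gene and less of its RNA per cell cannot be told apart.

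**Figure D2:**
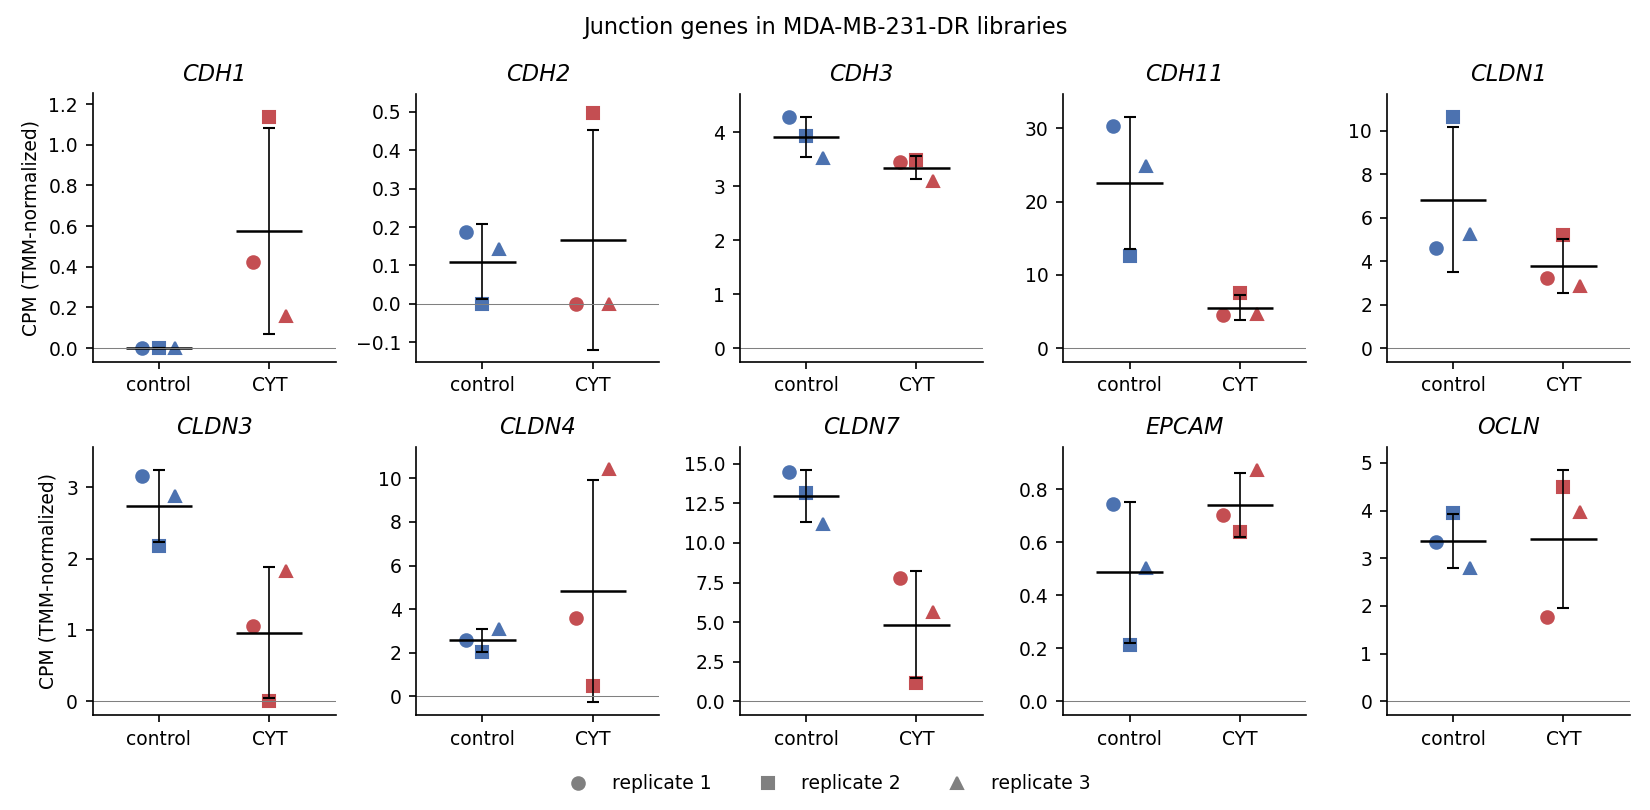
CPM (TMM-normalized) of the 10 junction genes in each control (blue) and CYT (red) library. Symbols give the replicate number, and lines and bars the group mean and SD. CDH3, CDH11, CLDN3 and CLDN7 lie lower in all CYT than in all control libraries, as groups do not overlap for 46.1% of all genes tested, and CDH1 is at 0 in control.

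Of CDH3 and CDH11, the cadherin genes among the 10 that were tested, CDH11 was called. This gene, on chr16:64943753-65126112, encodes a cadherin of mesenchymal and osteoblastic cells. Its counts were 488, 236 and 345 in the control group, given here and below in the order of replicates 1 to 3, and 64, 105 and 58 after CYT. In CPM these were 30.3, 12.6 and 24.8 against 4.51, 7.47 and 4.61. No CYT library reached the lowest control library, and control replicate 2 was the lowest of its group while CYT replicate 2 was the highest of its own. The means were 22.5 ± 9.06 CPM in control and 5.53 ± 1.68 CPM after CYT (SD, n = 3). CDH11 was 4.07-fold lower after CYT, with a log2 fold change of -2.02 (SE 0.42, 95% interval -2.96 to -1.09, adjusted p = 0.00674). It was called lower in all 15 alternative fits. Groups did not overlap for 4 of these 7 genes, beside 46.1% of the 15572 genes.

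Of the 8 mesenchymal markers, 3 were called lower and 0 higher: VIM at a log2 fold change of -1.30, SPARC at -1.48 and AXL at -0.82. This is 37.5%, beside 28.6% of all genes tested, of which 12.9% were called lower and 15.7% higher. CAV1 (-1.03), MSN (-0.73), CD44 (-0.19), LGALS1 (-0.14) and TGFBI (-0.05) were not called. Among 6 fibroblast markers, the only one that passed the filter was COL1A1, which was called lower, and the list's summed level was 12.1 to 19.8 CPM in control and 3.50 to 5.22 CPM after CYT. That sum is mostly COL1A1. DCN had no count and LUM at most 1, while PDGFRA, below the filter, had 4, 9 and 5 counts in control and 9, 15 and 8 after CYT. Whether the fall of CDH11 is tied to these genes was not tested.

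CDH1, the gene of E-cadherin at chr16:68737225-68835548, had 0 counts in all 3 control libraries. After CYT it had 6, 16 and 2 counts. These correspond to 0.423, 1.14 and 0.159 CPM, a mean of 0.574 ± 0.507 CPM. CYT replicate 2 held the highest count, and the exact 95% Poisson intervals of the 3 counts were 2.20 to 13.1, 9.15 to 26.0 and 0.242 to 7.22. These intervals cover counting error only. Set against a floor of 3 counts per control library, CDH1 was at least 3.07-fold higher after CYT, and at least 1.56-fold without CYT replicate 2. CYT replicate 3, with 2 counts, lay under this floor itself.

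The exact permutation test of 3 against 3 libraries gave p = 0.1 for CDH1, the smallest it can give. Being at 0 in every control and above 0 in every CYT library was a pattern of 1079 of the 32060 genes with a count, or 3.37%. With no filter on low counts, edgeR called 16.0% of these 32060 genes, and CDH1 was among them (adjusted p = 0.0147). With the replicate numbers as a block in that fit, the adjusted p was 0.115. Per length, CDH1 reached 0.0103 to 0.0847 FPKM after CYT, against a median of 2.50 FPKM over the genes tested.

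Among 106 junction genes in all, 96 had a count. Of these, 5 were at 0 in every control and above 0 in every CYT library, beside 3.37% of all genes with a count. Besides CDH1 they were CDH13 (18, 49 and 8 counts after CYT), the claudin CLDN9, the alpha-catenin CTNNA2 (3, 10 and 3) and the desmosomal cadherin DSC3 (7, 16 and 5). CDH13, CTNNA2 and DSC3 are named after their values were seen. Counts of basal keratins appeared likewise, at 2, 9 and 11 for KRT5 after CYT and 0 in every control library. The summed level of all 7 basal markers was nonetheless 3.41 to 8.31 CPM in control and 2.68 to 4.69 CPM after CYT, and of the 2 that passed the filter KRT15 was called lower. Their part in the CDH1 counts was not tested.

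CDH2, which encodes N-cadherin at chr18:27950966-28177446, was near the limit of detection in both groups. Its counts were 3, 0 and 2 in control and 0, 7 and 0 after CYT. All CYT counts came from replicate 2, and no fold is given because control counts did not exceed the floor and CYT counts did so in a single library. Without a filter CDH2 was not called (adjusted p = 0.842), nor with the block added (adjusted p = 0.897). An antisense gene inside the locus, AC110015.1, had 3 to 11 counts per library, as many as CDH2 or more in every library but CYT replicate 2. Whether the counting used strand is not given in the sources used here, so these reads cannot be assigned with confidence.

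CDH3, the gene of P-cadherin, ends 14608 bases before CDH1 on chromosome 16 (chr16:68636189-68722616) and was not called. It had 69, 74 and 49 counts in control and 49, 49 and 39 after CYT. The CPM values of 4.28, 3.94 and 3.52 lay just above those of 3.46, 3.49 and 3.10, without overlap. The log2 fold change was -0.23 (SE 0.36, 95% interval -1.03 to 0.58, adjusted p = 0.674). The 2 neighbouring cadherin genes therefore had unlike values, CDH3 being counted in all 6 libraries and CDH1 in 3.

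None of the 4 claudins was called in the main fit. CLDN7 at chr17:7259903-7263983, whose product binds EPCAM at the lateral membrane, had 234, 247 and 156 counts in control and 110, 16 and 71 after CYT. In CPM these were 14.5, 13.2 and 11.2 against 7.76, 1.14 and 5.64, with every CYT library below control and replicate 2 far below the other CYT libraries. The mean was 13.0 ± 1.65 CPM in control and 4.85 ± 3.38 CPM after CYT. The log2 fold change was -1.42 (SE 0.57, 95% interval -2.69 to -0.15), and edgeR's adjusted p was 0.0893, so CLDN7 was not called.

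CLDN7 passed the threshold in 4 of the 15 alternative fits, in each of which a larger or similar share of all genes was called. Without CYT replicate 2 its log2 fold change was -0.95 (adjusted p = 0.0440, 35.6% of genes called), and with the replicate block it was -1.68 (adjusted p = 0.0259, 39.9% of genes called; 0.103 with the block and no filter). DESeq2 gave an adjusted p of 0.0476 (33.9% called) and limma on log2(FPKM + 1) 0.0361 (28.2% called). CLDN7 shares 38 of its 2492 exonic bases with ELP5 on the other strand, which had 604 to 1042 counts in control and 701 to 1018 after CYT. A protein-coding gene that overlaps CLDN7 on its own strand, AC003688.1, had 5, 0 and 6 counts in control and 0, 3 and 0 after CYT. How reads in such overlaps were assigned is not given in the sources used here.

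CLDN3 and CLDN4 lie 29271 bases apart on chromosome 7. CLDN3 (chr7:73768997-73770270), which encodes a sealing claudin of glandular epithelia, had 51, 41 and 40 counts in control and 15, 0 and 23 after CYT. The CPM values of 3.16, 2.18 and 2.88 were all above those of 1.06, 0 and 1.83. Its log2 fold change was -1.51 (SE 0.86, 95% interval -3.44 to 0.41, adjusted p = 0.216). The estimate moved with single libraries, from -0.93 without CYT replicate 2 (adjusted p = 0.149) to -2.32 without CYT replicate 3 (adjusted p = 0.146). Limma on log2(FPKM + 1) was the only one of the 15 alternative fits to call it (adjusted p = 0.0476).

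CLDN4 (chr7:73799542-73832693), a claudin that limits sodium passage, had 42, 38 and 43 counts in control and 51, 7 and 131 after CYT. Control libraries lay at 2.60, 2.02 and 3.09 CPM. CYT libraries spread from 0.498 CPM in replicate 2 through 3.60 in replicate 1 to 10.4 in replicate 3, on both sides of control. The log2 fold change of 0.91 (SE 0.79, 95% interval -0.87 to 2.68, adjusted p = 0.424) was not called. A single library decided its sign, as it was -0.29 (adjusted p = 0.813) without CYT replicate 3 and 1.44 (adjusted p = 0.0436, called higher) without CYT replicate 2.

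Set against each other within a library, as log2 of the ratio of the counts plus 1, CLDN4 to CLDN3 was -0.27, -0.11 and 0.10 in control and 1.70, 3.0 and 2.46 after CYT. The CYT values were all above control. In CYT replicate 2 the ratio rests on 7 and 0 counts and so on the added 1. These ratios were chosen after the values were seen and are given as a description, with no test.

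CLDN1, whose product is a barrier-forming claudin of epidermis, had 74, 200 and 73 counts in control and 46, 73 and 36 after CYT. The groups overlapped at 4.59, 10.6 and 5.25 CPM against 3.24, 5.196 and 2.86. Control replicate 2 was the highest of its group, and so was CYT replicate 2, and within each of the 3 same-numbered pairs the CYT library was the lower. The log2 fold change of -0.86 (SE 0.45, 95% interval -1.86 to 0.15, adjusted p = 0.180) was not called in the main or any of the 15 alternative fits. CLDN1 lies at chr3:190305701-190322475.

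Summed over CLDN1, CLDN3, CLDN4 and CLDN7, claudin mRNA was 24.9, 28.0 and 22.4 CPM in control and 15.7, 6.83 and 20.7 CPM after CYT. The CYT sums were all below the control sums, with replicate 2 the lowest, where groups did not overlap for 46.1% of all genes tested. CLDN7 was the largest part of the control sums, at a mean of 13.0 CPM. CLDN4 went the other way in CYT replicate 3, at 10.4 CPM, and none of these genes was called in the main fit. On the FPKM scale, which divides by the lengths the authors used, CLDN1 held 86.1% of the claudin FPKM in CYT replicate 2 and 18.8% to 41.6% in the other 5 libraries, and CLDN3 held 0% there.

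**Figure D3:**
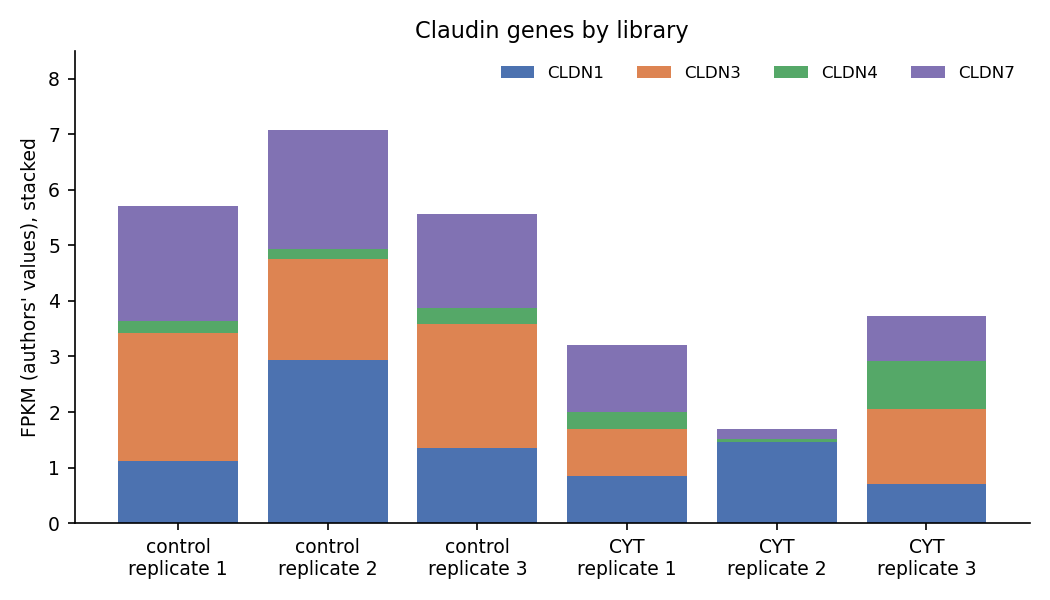
Stacked FPKM of CLDN1, CLDN3, CLDN4 and CLDN7 in each library, which sets the genes on a scale per length. Sums are 5.56 to 7.07 FPKM in control and 1.70 to 3.72 FPKM in CYT libraries, and CLDN1 is 86.1% of the FPKM of CYT replicate 2.

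OCLN at chr5:69492292-69558104, the occludin gene, had 54, 74 and 39 counts in control and 25, 63 and 50 after CYT. In CPM, 3.35, 3.94 and 2.80 overlapped with 1.76, 4.48 and 3.97. The log2 fold change was 0.015 (SE 0.45, 95% interval -0.99 to 1.02, adjusted p = 0.984), and the interval still holds changes of nearly 2-fold in either direction. Its sign turned in 9 of the 15 alternative fits. The pseudogene OCLNP1 had 4 to 13 counts per library, and reads shared with it may have been split.

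EPCAM at chr2:47345158-47387601 had 12, 4 and 7 counts in control and 10, 9 and 11 after CYT, too few for the filter. At 0.744, 0.213 and 0.503 CPM against 0.705, 0.641 and 0.874 CPM the groups overlapped. With the filter lowered to a minimum count of 5, the log2 fold change was 0.58 (adjusted p = 0.528), and no difference was detected.

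**Figure D4:**
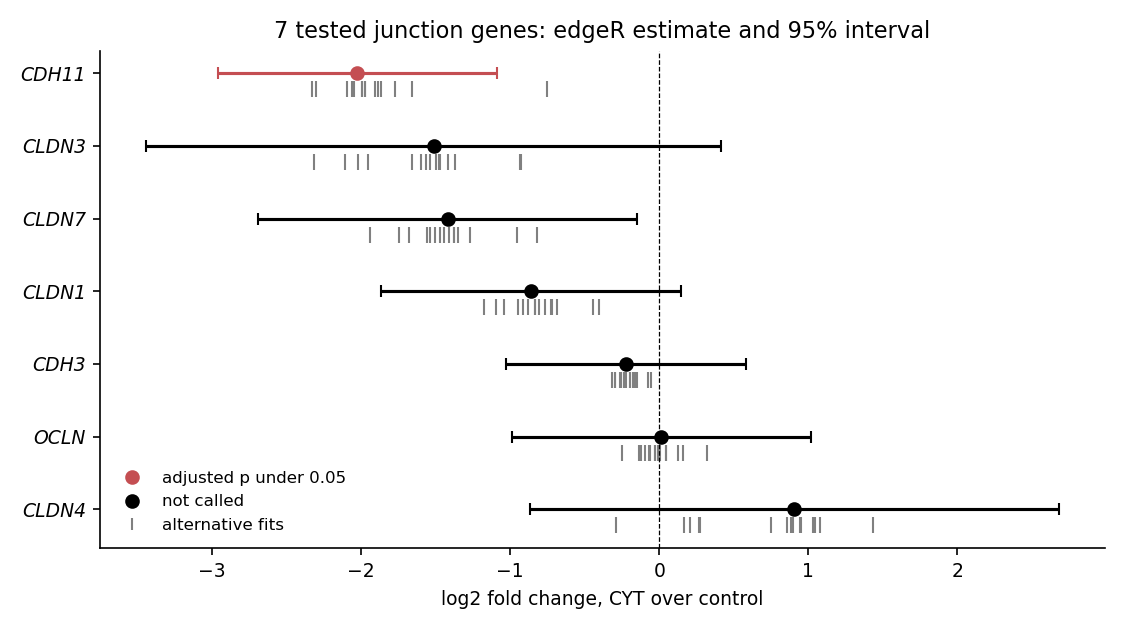
Log2 fold change (CYT over control) of the 7 junction genes that passed the filter, with the 95% interval of the edgeR fit and, as grey ticks below, the 15 alternative fits. The interval of CDH11 (-2.96 to -1.09) and that of CLDN7 (-2.69 to -0.15) lie below 0, and only CDH11 was called after adjustment.

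CYT replicate 2 was above both other CYT libraries for 6 of the 10 genes and below both for 4, namely CLDN3, CLDN4, CLDN7 and EPCAM. Without it, 3 genes were called in place of 1, with CDH11 and CLDN7 lower and CLDN4 higher, in a fit that called 35.6% of all genes. Of 11 luminal epithelial markers 8 passed the filter, and of these 2 were called lower and 0 higher, KRT19 at a log2 fold change of -3.45 and SPDEF with 238, 134 and 157 counts in control and 0 in every CYT library. The summed level of the 11 luminal markers was 835 to 1343 CPM in control and 373 to 653 CPM after CYT. That sum is mostly KRT8, KRT18 and KRT19, at means of 323, 279 and 287 CPM in control, and of these KRT19 alone was called. The part of the luminal markers in the claudin values was not tested.

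On the scale per length, CLDN3 was highest in control at 2.12 ± 0.268 FPKM, followed by CLDN7 at 1.96 ± 0.231, CLDN1 at 1.80 ± 0.992 and CDH11 at 1.24 ± 0.438. These 4 neighbours each overlapped with the next. OCLN (0.435 ± 0.0941) and CDH3 (0.412 ± 0.0371) followed at a lower level and overlapped with each other, then CLDN4 at 0.225 ± 0.0419 and EPCAM at 0.110 ± 0.0547 FPKM. All lay below the median of 2.42 FPKM over the genes tested.

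After CYT, CLDN1 came first at 1.004 ± 0.402 FPKM, with CLDN7 at 0.731 ± 0.508 and CLDN3 at 0.727 ± 0.679, and CDH11 was seventh at 0.318 ± 0.118 FPKM. From CLDN1 through CDH11, the ranges of neighbours in the CYT order overlapped. The length implied by count and FPKM was 3.4 times the longest coding transcript in GENCODE 29 for CLDN7 and 2.96 times for CDH1, but equal to it for CLDN3. The order of levels therefore rests in part on the lengths the authors used.

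The remaining genes of the junction complexes showed both directions. Of 96 genes in 6 lists, 46 passed the filter and 15 were called, 6 higher and 9 lower. This is 32.6%, beside 28.6% of all genes, and their median log2 fold change was -0.21. The same 6 lists held 9 calls, 4 of them lower, without control replicate 3.

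Of 19 other cadherins, 4 were tested, with 1 called higher, 1 lower and a median of -0.54. CDH4, which encodes R-cadherin, was the most abundant at 6.58 FPKM in control. It had 1124, 874 and 733 counts in control and 79, 52 and 178 after CYT, a log2 fold change of -2.85 (SE 0.50, adjusted p = 0.00325). All CYT libraries were below every control library, and without CYT replicate 3 the log2 fold change was -3.57. CDH24 was higher, with 292, 246 and 211 counts against 1011, 376 and 843 (log2 fold change 1.83, SE 0.40, adjusted p = 0.00910).

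Of 20 other claudins, 5 were tested, with 2 called higher, 1 lower and a median of -1.01. Of all genes tested, 15.7% were called higher and 12.9% lower. CLDN9 had 0 counts in control and 47, 26 and 31 after CYT, at least 13.6-fold higher against the floor of 3 counts per library (adjusted p = 0.00130). CLDN6 had 0, 1 and 1 counts in control and 79, 21 and 77 after CYT, at least 23.5-fold higher (adjusted p = 0.00128). Both passed the filter on low counts through their CYT libraries alone, where they are high, so their calls rest on that selection. They are claudins best known from embryonic and fetal epithelia. CLDN23, the most abundant in this list at 4.19 FPKM in control, fell from 150, 169 and 128 counts to 42, 18 and 51 (log2 fold change -1.73, SE 0.44, adjusted p = 0.0175). Its call was lost in 1 alternative fit, without control replicate 3.

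Nectins are adhesion proteins, linked to actin by afadin as cadherins are by catenins. Of these 12 genes 9 were tested, 0 were called higher and 1 lower, with a median of -0.16. That gene was AFDN, encoding afadin, at -1.10 (SE 0.31, adjusted p = 0.0246), and it lost its call in 5 of the 15 alternative fits. JUP, which encodes plakoglobin, had the highest mean in control at 27.5 FPKM, with CTNNB1, the beta-catenin gene, at 27.4 FPKM. Neither was called (adjusted p = 0.721 and 0.722).

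Scaffold and membrane partners of tight junctions comprised 18 genes, 16 of them tested, with 1 called higher and 3 lower and a median of -0.37. MAGI1, a scaffold of the junction plaque, had 773, 825 and 579 counts in control and 97, 138 and 54 after CYT (log2 fold change -2.67, SE 0.37, adjusted p = 0.00133). PARD3, a polarity protein, was lower at -1.33 (SE 0.31, adjusted p = 0.0109). The paracingulin gene CGNL1 was lower at -1.99 on at most 15 counts (SE 0.65, adjusted p = 0.0450), and at -2.75 without CYT replicate 1. It had 13, 15 and 11 counts in control and 5, 2 and 1 after CYT. CGNL1 thus passed the filter through its control libraries alone, where it is high, and its call rests on that selection. LSR, a protein of tricellular contacts, was higher at 1.37 (SE 0.45, adjusted p = 0.0460), although its groups overlapped. PARD3 lost its call in 1 of the 15 alternative fits (without control replicate 3), CGNL1 in 12 and LSR in 8, among them the replicate block for CGNL1 (adjusted p = 0.0704) and the block without a filter for LSR (adjusted p = 0.096). The most abundant gene of the list, F11R, was not called (18.99 FPKM in control, adjusted p = 0.276).

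Desmosomes join cells to keratin filaments, and 8 of their 15 listed genes were tested, with 1 called higher, 3 lower and a median of -0.28. EVPL, encoding envoplakin, fell from 1676, 700 and 514 counts to 73, 52 and 89 (log2 fold change -3.48, SE 0.51, adjusted p = 0.00160), with a log2 fold change of -2.83 without control replicate 1. PKP3, a plakophilin, fell from 2348, 1820 and 1462 to 323, 106 and 323 (-2.63, SE 0.46, adjusted p = 0.00330), and PKP4 was lower at -1.23 (SE 0.30, adjusted p = 0.0143). DSP, encoding desmoplakin, was higher at 1.05 (SE 0.33, adjusted p = 0.0402) and lost its call in 8 alternative fits, as PKP4 did in 3. PERP was the most abundant, at 42.1 FPKM in control, and was not called (adjusted p = 0.819).

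Among 12 connexins, which form gap junctions, 4 were tested and GJB2 was called higher. GJB2 had 123, 162 and 93 counts in control and 452, 769 and 486 after CYT (log2 fold change 2.45, SE 0.33, adjusted p = 0.00128). Its groups were widely apart. GJA1, the most abundant connexin gene here at 12.1 FPKM in control, was not called (adjusted p = 0.471).

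**Figure D5:**
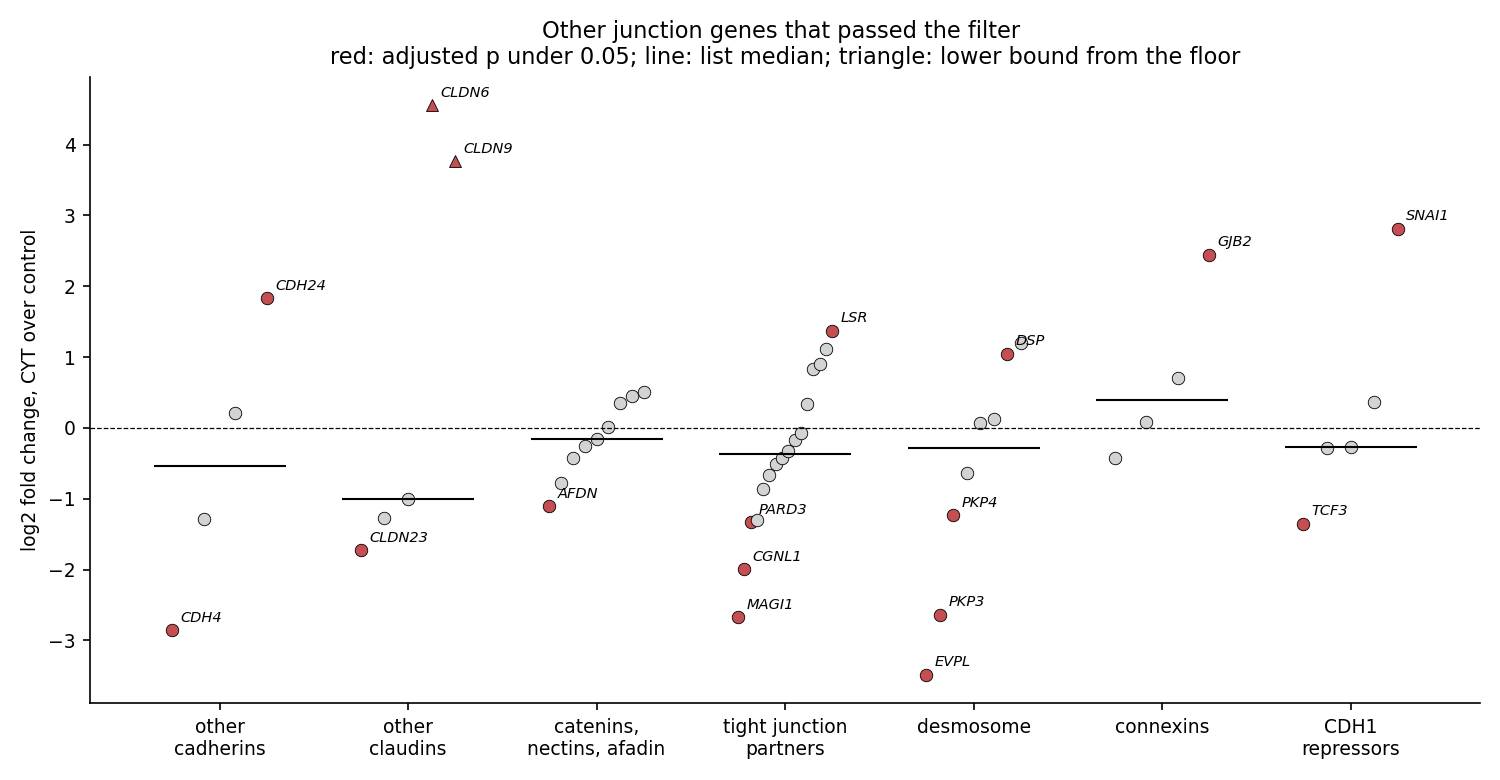
Log2 fold change (CYT over control) of the tested genes in the 6 other junction lists and the list of CDH1 repressors. Red symbols have an adjusted p under 0.05, lines are list medians, and the triangles of CLDN6 and CLDN9 are lower bounds against 3 counts per control library.

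The last list holds repressors of CDH1, factors that bind E-boxes. Of 7 genes, 5 passed the filter, with 1 called higher, 1 lower and a median of -0.27. SNAI1, the gene of Snail, had 298, 162 and 194 counts in control and 1778, 563 and 1543 after CYT, and every CYT library was above every control library. Its log2 fold change was 2.81 (SE 0.49, adjusted p = 0.00330). Its level was 7.93 FPKM in control, the highest of the list. TCF3, which encodes the E2A factors, was lower at -1.35 (SE 0.44, adjusted p = 0.0432) and lost its call in 5 of the 15 alternative fits. SNAI2, ZEB1 and ZEB2 were not called, with log2 fold changes of -0.27, -0.28 and 0.36, and TWIST1 and TWIST2 had at most 5 counts in any library.

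In CYT replicate 2, SNAI1 had its lowest count of the 3 CYT libraries and CDH1 its highest, while CLDN3, CLDN4 and CLDN7 had their lowest. With 3 libraries, no relation among these values was tested. Markers of other cell types were few. Leukocyte markers summed to 0.213 to 1.37 CPM in control and 4.09 to 5.12 CPM after CYT, with PTPRC at 0 in control and at most 7 counts after CYT. CD14 was called higher, with 10, 4 and 19 counts in control and 51, 59 and 49 after CYT. The 4 endothelial markers summed to 1.80 to 3.74 CPM in control and 4.56 to 4.85 CPM after CYT. KDR was called higher, with 5, 5 and 4 counts in control and 13, 27 and 18 after CYT. CD14 and KDR passed the filter through their CYT libraries alone, so their calls rest on that selection. PECAM1 was lower in every CYT library but not called (log2 fold change -0.96, adjusted p = 0.181).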

How the data were processed

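RNA of 3 control and 3 CYT-treated MDA-MB-231-DR libraries was sequenced on an Illumina NovaSeq platform after mRNA selection. The authors removed low-quality, adapter and ribosomal reads, aligned the clean reads with Hisat2, and deposited a raw count per gene and library. The submitters' processing notes name FastQC 0.12.1 and the build hg38. The authors also deposited FPKM values, for which the methods name Stringtie. Which program counted the reads, whether it used strand, and how it handled multiply aligned reads are not given in the sources used here.

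The count table was tested in R 4.3.3 with edgeR 4.0.16 (TMM, filterByExpr with a minimum count of 10, quasi-likelihood test of CYT against control, Benjamini-Hochberg adjustment over 15572 genes). The methods name no block for the sequencing data, although they name a paired test for comparisons of groups in general, and a block was tried as an alternative. The SE of a log2 fold change was derived from its F statistic. Total counts per library were 13056270 to 17770102. The floor was 3 counts per library. A mean CPM was tested by the exact permutation test of 3 against 3, whose smallest p is 0.1. Replicates of a group differed by a chi-square per gene of at least 25.0, so none was counted as a copy.

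Alternatives were DESeq2 1.42.0, upper-quartile and RLE normalization, a replicate block, the block with no filter, no filter, a minimum count of 5, limma 3.58.1 on log2(FPKM + 1) or with 0.1 in place of 1, and leaving out each library in turn. Libraries with the same replicate number in the labels had correlated deviations from the group means (r = 0.188, 0.458 and 0.124 across genes for numbers 1, 2 and 3). All exceed 0.1, so a fit with these pairs as a block is given beside results whose call it changes, although control 1 with CYT 3 (0.303) and control 3 with CYT 1 (0.201) also exceeded it.

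The 10 genes and the lists were chosen with earlier results of these data known. Named besides the 10 are, per junction or repressor list, up to 3 genes called in each direction with the largest change and the most abundant in control. CTNNB1, CDH13, CTNNA2, DSC3 and the uncalled repressors were named after their values were seen. Marker lists are given by counts, with single markers named after their values were seen.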

Additional observations from a re-analysis of the deposited data

How the results depend on the processing

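The log2 fold changes of CDH11, CDH3, CLDN1, CLDN3 and CLDN7 kept their sign in all 15 alternative fits, and CDH11 stayed past the threshold in each (log2 fold change -2.33 to -0.75, adjusted p 5.21e-05 to 0.0307). Of the 10 genes, 1 was called in the main fit, 2 with DESeq2 (2 lower), 2 without a filter (1 higher, CDH1), 3 with limma on log2(FPKM + 1) (3 lower) and 1 to 3 when a library was left out (0 to 1 higher, 1 to 2 lower), the 3 being without CYT replicate 2. The replicate block gave 2 calls (2 lower) by adding CLDN7. Among the 7 tested genes and the list genes named by rule, the block alone changed the calls of CLDN7 (gained) and CGNL1 (lost). With the block and no filter, CDH1, CLDN7, CGNL1 and LSR were not called, and DSP, lost with no filter, was. In the 6 other junction lists, 15 genes were called in the main fit and 9 to 19 when a library was left out (4 to 7 higher, 4 to 12 lower). Without a filter 10 were called higher, and pairing by the replicate block called 21 (8 higher, 13 lower). OCLN, not called in any fit, turned negative without a filter (-0.065), at a minimum count of 5 (-0.031), with limma on log2(FPKM + 0.1) (-0.029), with the replicate block (-0.061), with the block and no filter (-0.14), and when control replicate 1 (-0.0094) or 3 (-0.12) or CYT replicate 2 (-0.25) or 3 (-0.097) was left out. Leaving out a library gave 0.32 at most for OCLN, -0.29 (without CYT replicate 3) to 1.44 (without CYT replicate 2) for CLDN4, -0.51 to 0.13 for JUP and -0.27 to 0.30 for PERP. JUP turned positive without control replicate 1 (0.0024) or CYT replicate 2 (0.13), and PERP negative with the block and no filter (-0.015) and without control replicate 3 (-0.0042) or CYT replicate 2 (-0.27). The cause of these changes was not tested. For CDH1, the least fold over the floor was 1.56 to 4.17 when a library was left out. Depth limits CDH1, CDH2 and EPCAM, with at most 16 counts in any library.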
